A study of Homo sapiens with 12 samples.

Results

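A375 cells, an established human melanoma line, were exposed for 24 h to SB-3CT, an inhibitor of the gelatinases MMP2 and MMP9, and were compared by RNA-seq with A375 cells whose labels list no treatment, both without interferon-gamma (IFNγ). The members of the comparison were chosen by the treatment labels and comprised 6 of the 12 libraries of the series, 3 with SB-3CT and 3 untreated controls, over all 4918 genes of the expression table. The other 6 libraries received IFNγ, with or without SB-3CT, in a study that asked how gelatinase inhibition acts on PD-L1. The treatment notes also mention a vehicle, the dose used for these libraries is not in the labels, and nothing states that the replicates came from separate cultures, so that p-values measure only the spread between these samples. The table lists symbols from A1BG to FAM46B, and MMP2 and MMP9 themselves were not analysed here.

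Gelatinases are secreted zinc-dependent proteases that cut denatured collagen, basement membrane and many cell surface proteins, and melanoma cells use them to move through tissue. SB-3CT is a thiirane that binds the catalytic zinc of these enzymes. Cells that meet a foreign small molecule or a shortage of amino acids or lipids often answer with a few known transcript programs: the ATF4 and CHOP arm of the integrated stress response, the aryl hydrocarbon receptor and its target CYP1A1, the carbonyl and aldo-keto reductases that detoxify reactive carbonyls, and the sterol-sensing control of cholesterol synthesis.

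Expression was given as log2(FPKM + 1), a scale that understates the change of low genes, and all changes below are differences of group means on that scale unless FPKM is named. Depth relative to the mean of the controls, read from the steps between the lowest values, was 96.1 to 106.6% in controls and 92.4 to 129.9% with SB-3CT. SB-3CT replicate 1 lay nearest to the controls, with a mean root-mean-square distance of 0.239 to them against 0.297 and 0.284 for replicates 2 and 3, while the controls lay 0.16 from each other. Of the 912 genes that passed the test without it, replicate 1 moved in the same direction in 93.2%, by a median of 52.5% of the change of the other replicates. All 8 melanoma and neural crest markers were in the table, led by ERBB3 and CSPG4, while BIRC7, DCT, CAPN3 and ABCB5 averaged 0.318 FPKM or less in controls. The other lists were at or near 0 except for CLDN4 (epithelial) and CD68 (myeloid). The summed FPKM of fibroblast markers was 0.39 to 0.625 in controls and 0.389 to 0.482 with SB-3CT, that of epithelial markers 7.4 to 9.07 and 9.13 to 11.6, that of endothelial markers 0.047 to 0.173 and 0.0831 to 0.105, that of lymphoid markers 0 to 0.178 and 0.0396 to 0.306, and that of myeloid markers 19.9 to 23.1 and 23.5 to 25.7. No member of these 5 lists passed the test with SB-3CT, and the part of depth and of these markers in the results was not tested.

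With SB-3CT alone, 602 of 4918 genes (12.2%) passed an adjusted p-value of 0.05 in limma, 264 of them upregulated (5.37%) and 338 downregulated (6.87%). Most changes were small, with a median of 0.29 among upregulated and -0.35 among downregulated genes. Only 31 upregulated and 50 downregulated genes exceeded 0.5, and the extremes were 1.80 and -1.12. Unadjusted p-values were under 0.05 for 1478 genes (30.1%), of which 21 were higher (0.427%) and 28 lower (0.569%) by more than 1.5-fold. The groups did not overlap for 700 genes that were higher (14.2%) and 969 that were lower (19.7%), in all 1669 (33.9%). With 1 sample fewer in the fit the count changed, and why it did was not tested. It was 912 without SB-3CT replicate 1 and 88, 73, 88, 86 and 82 without control replicates 1, 2 and 3 and SB-3CT replicates 2 and 3, respectively. In every one of these 6 fits 54 genes passed (34 upregulated and 20 downregulated). Upregulated genes made up 43.9% of those that passed, 33.1% without SB-3CT replicate 1 (302 and 610) and 54.3% once the dependence on transcript length had been taken out of each sample (385 and 324).

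Of the genes that averaged 1 FPKM or more and did not overlap between groups, the 24 with the largest changes are shown by sample, and 18 of them passed in all 6 leave-one-out fits. Among the 122 genes picked for naming by size of change or as list members that passed with all samples, 31 passed in all 6 fits. The 22 rises among them were ANGPTL4, CT45A5, CHAC1, CYB5R3, CYP1A1, ALAS1, DDIT3, AKR1C1, DUSP1, ATF3, ASNS, AKR1C3, CD82, CDT1, AKR1B1, CDK2, EPS8L2, CTSL, CDKN1A, AARS, CCND3 and CDC20, and the 9 falls were AGMO, C5orf58, DHCR7, EPHA3, F8A3, AMACR, ACSL3, AIM2 and ADAM19. The other genes of the 122 lost the call in at least one fit, since leaving out a control or SB-3CT replicate 2 or 3 ended 82 to 89 of these calls each and leaving out SB-3CT replicate 1 ended 5. Of the further list members mentioned below, CDKN2C and CPS1 also passed in all 6 fits. The rises were led by ANGPTL4, CT45A5, CHAC1, CYB5R3 and CYP1A1 and the falls by AGMO, C5orf58, FABP7, DHCR7 and EPHA3. They are described with the gene lists that hold them, and those on no list are given last. Counts for each list stand beside 5.37% upregulated and 6.87% downregulated over all genes. List counts from the fit without SB-3CT replicate 1 stand instead beside the 302 upregulated and 610 downregulated genes of that fit.

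**Figure D1:**
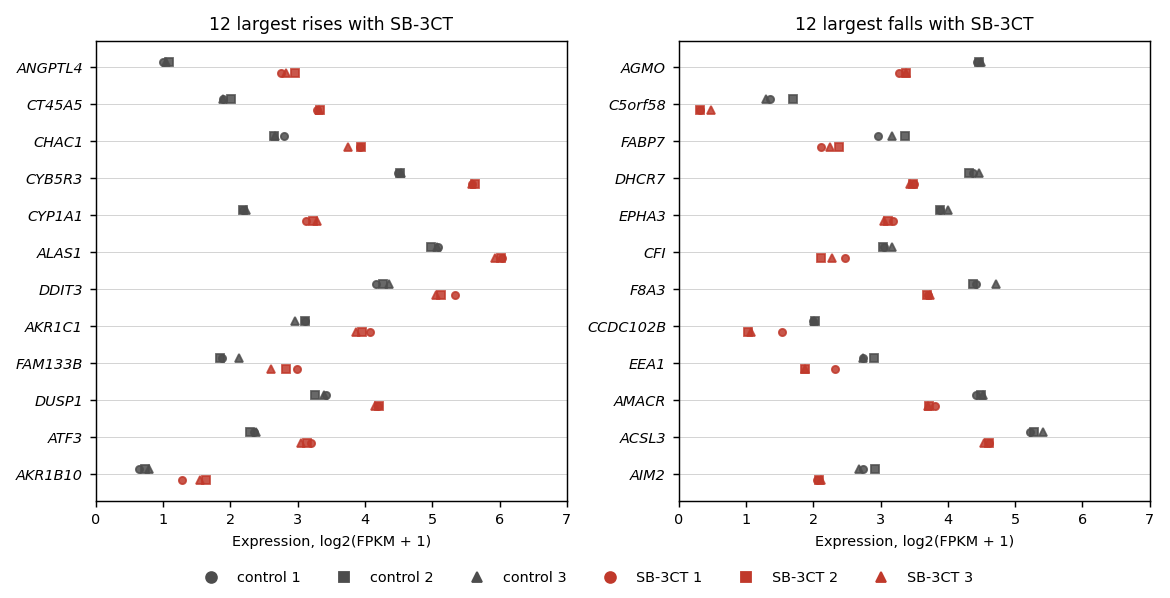
Expression, log2(FPKM + 1), of the 12 genes with the largest rises (left) and the 12 with the largest falls (right) in each of 3 control (grey) and 3 SB-3CT (red) samples, with a marker shape for each replicate number. The 3 SB-3CT samples lie on one side of the 3 controls for every gene shown, as the choice of genes required. SB-3CT replicate 1 lies nearest to the controls for some genes, among them EEA1, CCDC102B, CFI, AKR1B10, ANGPTL4 and CYP1A1. For others, among them DDIT3, ATF3 and AKR1C1, it lies farthest from them.

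The stress program of ATF4 and CHOP was upregulated in part. Of its 28 listed genes 9 were upregulated (32.1%) and 1, the chloride transporter CLCN3, was downregulated, beside 5.37% and 6.87% of all genes tested. All 28 averaged 1 FPKM or more, whereas the shares over all genes include lower genes. Of the 3173 genes that averaged 1 FPKM or more, 244 were upregulated and 305 downregulated without overlap between groups. The median change was 0.23 against -0.03 over these genes. Those that rose span the regulators and the targets of the program: the transcription factors ATF4, ATF5, DDIT3 (CHOP) and ATF3, the glutathione-degrading CHAC1, the asparagine synthetase ASNS, the translation inhibitor EIF4EBP1, the guanine nucleotide exchange factor ARHGEF2 and the flavin reductase CYB5R1. Without SB-3CT replicate 1, 9 members were upregulated and 5 downregulated, and after scaling by the median ratio 10 and 1. The fit without that replicate had 302 upregulated and 610 downregulated genes over the whole table, against 264 and 338 with all samples. Of the 9 rises 4 passed in all 6 leave-one-out fits (CHAC1, DDIT3, ATF3 and ASNS).

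CHAC1, a gamma-glutamyl cyclotransferase and one of the most sensitive targets of this program, was 2.79, 2.65 and 2.66 in the controls and 3.92, 3.93 and 3.75 with SB-3CT. All SB-3CT samples lay far above all controls, and the mean rose from 5.50 ± 0.36 to 13.6 ± 0.998 FPKM (SD, n = 3), a change of 1.17 ± 0.07 (limma estimate ± its standard error, adjusted p = 0.000533). DDIT3, the proapoptotic factor CHOP, was 4.17, 4.27 and 4.36 in the controls and 5.34, 5.13 and 5.06 with SB-3CT (change 0.91, adjusted p = 0.00247 from limma). ATF3, a repressor induced by many stresses, was 2.35, 2.29 and 2.38 in the controls and 3.20, 3.15 and 3.05 with SB-3CT (change 0.79, adjusted p = 0.00241 from limma). For these factors too the groups did not overlap, and SB-3CT replicate 1 was the highest sample of both. ASNS, which makes asparagine, was 5.17, 4.98 and 5.08 in the controls and 5.82, 5.69 and 5.70 with SB-3CT (change 0.66, adjusted p = 0.00247 from limma). ATF4 itself, the factor at the head of the program, was already abundant and moved less, from 257 ± 9.17 to 327 ± 11.7 FPKM (SD, n = 3), and its adjusted p-value of 0.00932 reached up to 0.0541 with one sample left out.

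The promoters of the responding genes were searched for the composite element bound by ATF4 with CEBP factors, TGATGNAA on either strand. It was found in 4 of the 21 list members with a promoter window, CHAC1, ASNS, ATF3 and BCAT1, and in 3.67% of the 27305 windows of RefSeq (GRCh38.p14, 250 bases before to 50 after each start) and 1.66% of the 3444 windows of genes in the table. The 3 windows of genes that rose are shown to place the element, in capitals, at 209, 68 and 191 bases before the start: CHAC1 at chr15:40953221-40953520 on the plus strand, ASNS at chr7:97872359-97872658 on the minus strand and ATF3 at chr1:212565157-212565456 on the plus strand.
CHAC1: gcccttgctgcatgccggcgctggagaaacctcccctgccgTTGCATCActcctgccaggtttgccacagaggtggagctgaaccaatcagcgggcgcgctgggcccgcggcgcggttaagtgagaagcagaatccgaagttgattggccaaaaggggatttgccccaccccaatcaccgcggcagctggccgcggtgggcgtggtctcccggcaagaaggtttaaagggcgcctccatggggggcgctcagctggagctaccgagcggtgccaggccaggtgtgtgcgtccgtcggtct
ASNS: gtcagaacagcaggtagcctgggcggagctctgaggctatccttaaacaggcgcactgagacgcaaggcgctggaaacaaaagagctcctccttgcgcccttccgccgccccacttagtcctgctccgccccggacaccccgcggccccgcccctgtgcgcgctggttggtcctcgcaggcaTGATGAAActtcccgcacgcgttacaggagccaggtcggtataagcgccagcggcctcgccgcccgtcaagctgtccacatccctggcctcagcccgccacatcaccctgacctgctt
ATF3: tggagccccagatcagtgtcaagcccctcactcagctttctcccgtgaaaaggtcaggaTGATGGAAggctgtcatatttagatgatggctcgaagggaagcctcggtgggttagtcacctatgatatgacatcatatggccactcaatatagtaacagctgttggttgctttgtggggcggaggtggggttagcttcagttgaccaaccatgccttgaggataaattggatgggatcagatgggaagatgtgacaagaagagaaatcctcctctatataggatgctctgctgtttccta
In CHAC1 the element reads on the other strand. Among all upregulated genes 2.04% of windows held the element and among the downregulated 0.39%. DDIT3, which rose between CHAC1 and ATF3, has no match in its window, and neither have ATF4, ATF5 and ARHGEF2. EIF4EBP1 and CYB5R1, which also rose, had no window.

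Aminoacyl-tRNA synthetases, which charge tRNAs with amino acids and are partly driven by ATF4, split. AARS (change 0.34) and CARS (0.24) were upregulated and EPRS (-0.34) downregulated among the 8 listed. AARS, the alanine enzyme, was 5.93, 5.84 and 5.89 in the controls and 6.24, 6.25 and 6.19 with SB-3CT and passed with each sample left out in turn. CARS and EPRS passed only in the fit without SB-3CT replicate 1, with adjusted p-values of up to 0.0715 and 0.139 in the others. Of 31 genes of folding and degradation in the endoplasmic reticulum 4 were upregulated, CRELD2, AUP1 and ARFGAP1 among them, and 1 downregulated (EDEM3), with a median of 0.02. CRELD2, a secreted folding factor, was the largest rise of the list, at 4.66, 4.76 and 4.68 in the controls and 5.09, 5.10 and 5.26 with SB-3CT.

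CYP1A1, the monooxygenase that serves as the textbook readout of the aryl hydrocarbon receptor, was 2.19, 2.19 and 2.23 in the controls and 3.13, 3.23 and 3.28 with SB-3CT. It rose from 3.60 ± 0.076 to 8.29 ± 0.513 FPKM (SD, n = 3), a change of 1.01 ± 0.07 (limma estimate ± its standard error, adjusted p = 0.00085), and passed in all 6 leave-one-out fits. Few other genes of the receptor passed. Of the 10 listed, 2 were upregulated, CYP1A1 among them, and the receptor AHR itself was downregulated (-0.27, adjusted p = 0.0449). AHR lost the call in every fit that left out a sample other than SB-3CT replicate 1 (adjusted p of up to 0.145). CYP1B1, a sister enzyme, was below 1 FPKM in either group (0.734 ± 0.0433 and 0.888 ± 0.0899 FPKM, SD, n = 3, adjusted p = 0.219), and the repressor AHRR was 2.16, 1.88 and 1.90 in the controls and 1.96, 2.11 and 2.14 with SB-3CT, which overlap. The CYP1A1 window, at chr15:74725479-74725778 on the minus strand of GRCh38.p14, is shown because it holds the receptor's core letters GCGTG, in capitals, 57 bases before the start.
CYP1A1: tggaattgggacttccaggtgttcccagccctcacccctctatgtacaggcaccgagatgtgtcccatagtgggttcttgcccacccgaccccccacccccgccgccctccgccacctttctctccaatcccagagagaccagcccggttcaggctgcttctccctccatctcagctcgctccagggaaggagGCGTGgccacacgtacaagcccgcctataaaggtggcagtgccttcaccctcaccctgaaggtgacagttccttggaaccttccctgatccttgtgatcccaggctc
These 5 letters occurred in 5 of the 7 windows of the list, in 36.33% of all windows and in 48.29% of those of genes in the table, with 51.53% among upregulated and 54.05% among downregulated genes.

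Carbonyl-reducing enzymes were the list with the highest share of rises. Of 22 listed carbonyl, aldo-keto and biliverdin reductases 8 were upregulated (36.4%) and 2 downregulated, beside 5.37% and 6.87% of all genes, with a median of 0.11. The counts were the same without SB-3CT replicate 1, after scaling by the median ratio and with the length trend removed. AKR1C1, a ketosteroid reductase, was 3.11, 3.12 and 2.96 in the controls and 4.07, 3.96 and 3.86 with SB-3CT, a rise from 7.36 ± 0.495 to 14.6 ± 1.17 FPKM (SD, n = 3, adjusted p = 0.00201 from limma). AKR1C3, which makes active androgens and prostaglandins, was 4.83, 4.90 and 4.92 in the controls and 5.53, 5.44 and 5.66 with SB-3CT. AKR1B1, the aldose reductase of the polyol pathway, was the most abundant of them, at 159 ± 8.27 FPKM in controls and 229 ± 9.02 FPKM with SB-3CT (SD, n = 3, adjusted p = 0.0041 from limma). These 3 passed with each sample left out in turn, and no SB-3CT sample overlapped a control. AKR1B10, which reduces retinal, was low at 0.64, 0.73 and 0.79 in the controls and 1.28, 1.63 and 1.55 with SB-3CT, and its adjusted p-value of 0.00897 reached up to 0.0613 with one sample left out. BLVRB, which turns biliverdin into bilirubin, was 6.34, 6.59 and 6.35 in the controls and 6.79, 6.98 and 6.93 with SB-3CT (change 0.47, adjusted p = 0.0176 and up to 0.0916 with one sample left out). The other rises were AKR1C2, CBR3 and DHRS4, and the falls CBR4 and DHRS3. The AKR1C genes are closely similar in sequence and can share reads, so their separate values are uncertain. AKR1C1, AKR1C2 and AKR1C3 may therefore not be separate rises, which limits the share given for this list. Letters of the antioxidant element, TGACNNNGC on either strand, occurred in 2 of 17 windows of the list, AKR7A2 and CBR1, neither of which was upregulated, and in 13.56% of all windows.

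Single enzymes of electron transfer and heme supply rose. CYB5R3, the reductase that feeds electrons to cytochrome b5 for desaturation, sterol synthesis and drug metabolism, had the lowest adjusted p-value of the 24 genes (6e-05 from limma). It was 4.49, 4.52 and 4.54 in the controls and 5.59, 5.64 and 5.60 with SB-3CT, a rise from 21.9 ± 0.388 to 47.7 ± 0.908 FPKM (SD, n = 3). Of the 9 listed cytochrome b5 genes and reductases only CYB5R3 and CYB5R1 (0.32) were upregulated, 0 were downregulated and the median was -0.02. ALAS1, the rate-limiting enzyme of heme synthesis, was 5.09, 4.98 and 5.07 in the controls and 6.04, 6.02 and 5.93 with SB-3CT, a rise from 32.0 ± 1.33 to 62.8 ± 2.56 FPKM (SD, n = 3, adjusted p = 0.000176 from limma). Among 17 aldehyde dehydrogenases, ALDH2, the mitochondrial enzyme of acetaldehyde oxidation, was the only member upregulated (15.5 ± 1.04 to 21.4 ± 0.556 FPKM, SD, n = 3) and none was downregulated.

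**Figure D2:**
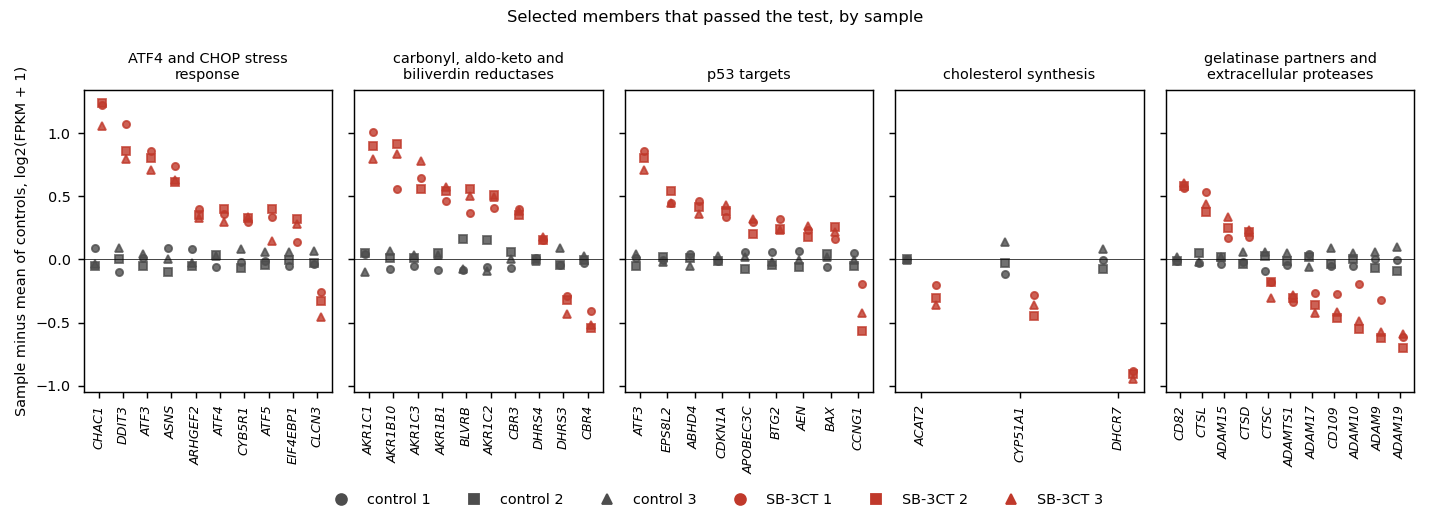
Each sample minus the mean of the controls, log2(FPKM + 1), for members that passed the test in 5 gene lists, with controls in grey, SB-3CT in red and a marker shape for each replicate number. Members are ordered by change. Rises and falls number 9 and 1 for the stress list, 8 and 2 for the reductases and 8 and 1 for the p53 targets. The cholesterol synthesis genes shown are 3 falls, and the protease list has 4 rises and 7 falls.

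Cholesterol synthesis was the list with the highest share of falls. Of 6 listed enzymes 4 were downregulated (66.7%) and 0 upregulated, beside 6.87% and 5.37% of all genes, with a median of -0.24. DHCR7, which makes cholesterol from its last precursor, was 4.38, 4.31 and 4.47 in the controls and 3.50, 3.47 and 3.44 with SB-3CT, a fall from 19.9 ± 1.16 to 10.1 ± 0.233 FPKM (SD, n = 3, adjusted p = 0.000508 from limma), and passed with each sample left out. The sterol demethylase CYP51A1 (-0.36) and the acetyl-CoA thiolase ACAT2 (-0.29) fell less, and each passed only in the fit without SB-3CT replicate 1 when one sample was left out (adjusted p of up to 0.118 and 0.0781). EBP, the sterol isomerase, was 5.64, 5.64 and 5.66 in the controls and 5.83, 5.76 and 5.78 with SB-3CT (change 0.14, adjusted p = 0.052), in the opposite direction to the members that fell, and 1 member of the list was upregulated after scaling by the median ratio. A sterol element, TCACNCCAC on either strand, occurred in 0 of the 4 windows at hand and in 1.15% of all windows.

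Few fatty acid genes passed. In the list of synthesis, activation and desaturation, ACSL3 (-0.72), ACSL4 (-0.48) and ELOVL6 (-0.39) were downregulated and 0 of 22 upregulated. The median was -0.001, and -0.12 over the 15 members that averaged 1 FPKM or more, beside -0.03 over all such genes. ACSL3, which activates fatty acids at lipid droplets, was 5.22, 5.29 and 5.41 in the controls and 4.61, 4.61 and 4.54 with SB-3CT, a fall from 38.6 ± 2.72 to 23.0 ± 0.636 FPKM (SD, n = 3, adjusted p = 0.00161 from limma). Of the 35 oxidation genes CPT1A, ACOT7, ECI1 and ACADVL were upregulated, by 0.20 to 0.32, and ACADM was downregulated, with 3 and 2 after scaling by the median ratio. The median of that list was -0.04, 13 of its members had a change above 0, and 5 lay higher and 8 lower without overlap, beside 14.2% and 19.7% of all genes. CPT1A, which admits fatty acids to mitochondria, was 2.91, 2.85 and 2.76 in the controls and 3.19, 3.10 and 3.20 with SB-3CT. The 4 rises were small and each lost the call in at least 3 leave-one-out fits, CPT1A with an adjusted p of up to 0.107. The peroxisomal racemase AMACR, which prepares branched fatty acids for oxidation, was not in that group of rises: it was 4.42, 4.49 and 4.52 in the controls and 3.80, 3.72 and 3.70 with SB-3CT (change -0.73, adjusted p = 0.000908 from limma).

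Lipid handling genes held the largest rise and 2 of the 3 largest falls. ANGPTL4, a secreted inhibitor of lipoprotein lipase that is also on the hypoxia list, was 1.00, 1.08 and 1.04 in the controls and 2.75, 2.96 and 2.82 with SB-3CT. It lies at 8428173 to 8439254 on chromosome 19 of hg19 and rose from 1.05 ± 0.0602 to 6.19 ± 0.539 FPKM (SD, n = 3), a change of 1.80 ± 0.09 (limma estimate ± its standard error, adjusted p = 0.000152). AGMO, the monooxygenase that cleaves alkylglycerol ether lipids (chromosome 7 of hg19, 15239942 to 15601640), was 4.44, 4.47 and 4.49 in the controls and 3.27, 3.38 and 3.37 with SB-3CT, a fall from 21.1 ± 0.411 to 9.14 ± 0.426 FPKM (SD, n = 3, adjusted p = 0.000152 from limma). Both passed with each sample left out, and in both the groups lay far apart. FABP7, the brain fatty acid-binding protein found in melanoma, was 2.96, 3.36 and 3.17 in the controls and 2.12, 2.38 and 2.24 with SB-3CT (change -0.92, adjusted p = 0.00823 and up to 0.0612 with one sample left out). The cholesterol exporter ABCA1 fell from 1.39 ± 0.119 to 0.707 ± 0.108 FPKM (SD, n = 3, adjusted p = 0.0128 and up to 0.0613 with one sample left out). Of 24 lipid-binding and lipoprotein genes ANGPTL4 was the only one upregulated, and FABP7, ABCA1, ANGPTL6 and DBI were downregulated. Besides AGMO, the ether lipid and phospholipid list of 18 had AGPS and EPT1 downregulated and AGPAT2, CHKA and CHPT1 upregulated.

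On the hypoxia list few members passed besides ANGPTL4. Of its 20 members only ANGPTL4 and the glycolytic ALDOA (0.28) were upregulated, ALDOC (-0.32) and BNIP3L (-0.32) were downregulated, and the median was 0.02.

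**Figure D3:**
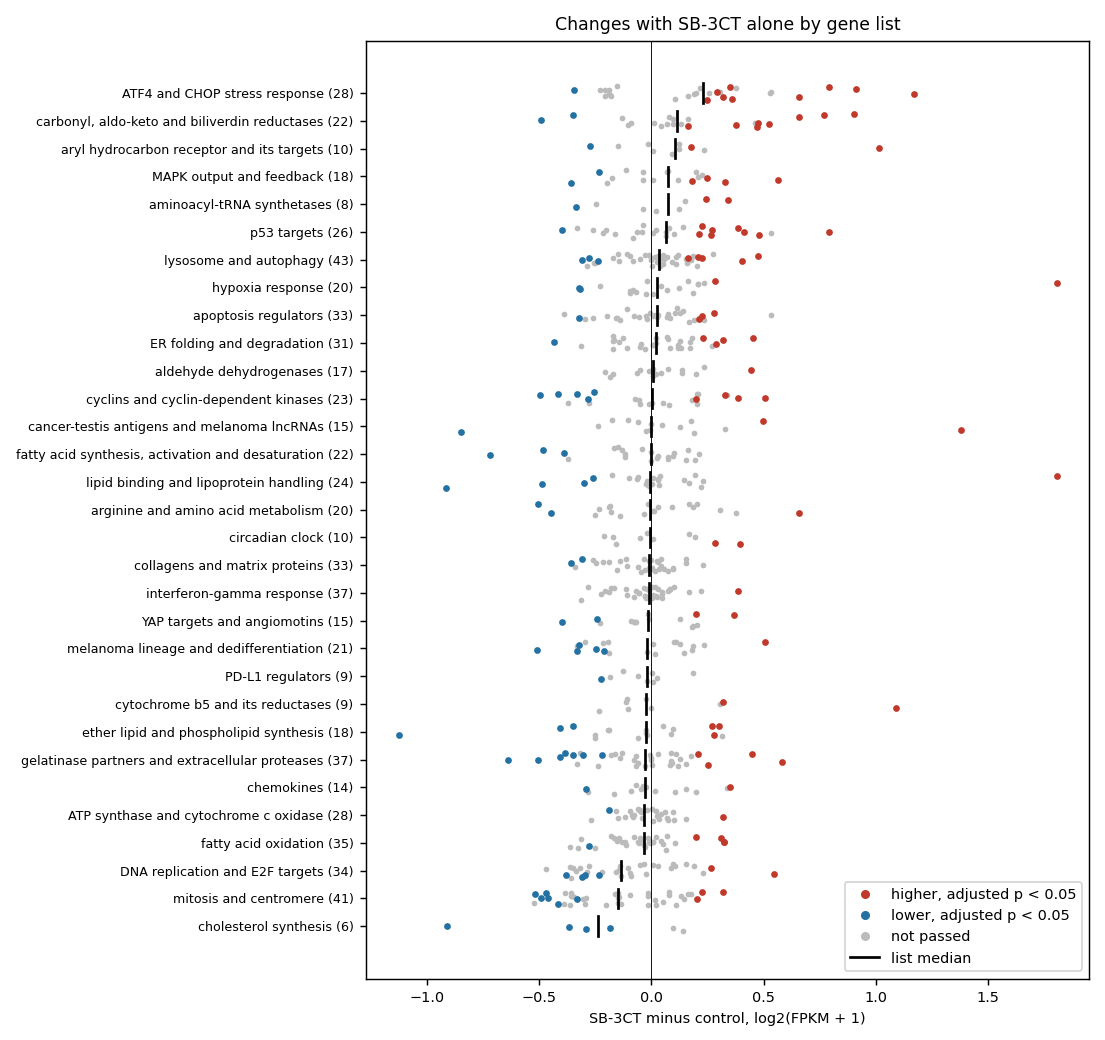
Change with SB-3CT, log2(FPKM + 1), of every member of the 31 gene lists, with the number of members in brackets, coloured where the adjusted p-value was under 0.05, and a bar at the list's median. Medians run from 0.23 for the ATF4 and CHOP stress response to -0.24 for cholesterol synthesis.

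Proteases and the partners of gelatinases at the cell surface, the list nearest to the target of the inhibitor, moved in either direction. Of 37 listed genes 4 were upregulated (10.8%) and 7 downregulated (18.9%), beside 5.37% and 6.87% of all genes, with a median of -0.03. The tetraspanin CD82, a suppressor of metastasis, was 2.95, 2.95 and 2.98 in the controls and 3.53, 3.54 and 3.57 with SB-3CT, a rise from 6.79 ± 0.102 to 10.7 ± 0.159 FPKM (SD, n = 3, adjusted p = 0.00241 from limma). The lysosomal protease CTSL rose from 96.1 ± 2.89 to 132 ± 7.50 FPKM (SD, n = 3, adjusted p = 0.00596 from limma), and CTSD and ADAM15 were the other rises. Membrane-bound ADAM proteases, which shed the outer parts of surface proteins, made up 4 of the 7 falls. ADAM19, which releases neuregulins, was 3.39, 3.31 and 3.50 in the controls and 2.78, 2.70 and 2.81 with SB-3CT (change -0.64, adjusted p = 0.00596 from limma). ADAM9 (-0.51, adjusted p = 0.0169 and up to 0.0883 with one sample left out) and ADAM10 (-0.41), the sheddase of cadherins and Notch, fell with ADAM17, ADAMTS1, CD109 and CTSC. For ADAM10, at 4.45, 4.51 and 4.55 in the controls and 4.31, 3.95 and 4.02 with SB-3CT, replicate 1 lay nearest to the controls, and the adjusted p-value reached up to 0.143 with one sample left out. CD82, CTSL and ADAM19 passed with each sample left out in turn. CD44, a docking site for MMP9 (96.7 ± 1.72 and 87.8 ± 3.77 FPKM, SD, n = 3, adjusted p = 0.0803), and BSG, an inducer of metalloproteinases (376 ± 17.5 and 405 ± 14.9 FPKM, adjusted p = 0.222), did not pass.

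Collagens and matrix proteins, the substrates of gelatinases, had few members that passed. Of 33 listed genes 0 were upregulated and 2 downregulated, EMILIN1 (-0.36) and COL5A2 (-0.31), which both passed only in the fit without SB-3CT replicate 1 when a sample was left out (adjusted p of up to 0.0779 and 0.0741). The basement membrane chains COL4A1 (27.8 ± 0.0201 and 27.3 ± 0.423 FPKM, SD, n = 3) and COL4A2 (58.4 ± 2.10 and 59.4 ± 1.84 FPKM, SD, n = 3) had adjusted p-values of 0.684 and 0.775. At the cell surface the ephrin receptor EPHA3 fell more than any protease, from 3.89, 3.88 and 4.01 in the controls to 3.18, 3.11 and 3.05 with SB-3CT (change -0.81, adjusted p = 0.00149 from limma).

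The question of PD-L1 without IFNγ was addressed with CD274, which encodes it. CD274 was 0.65, 0.51 and 0.71 in the controls and 0.62, 0.85 and 0.63 with SB-3CT. The groups overlapped, below 1 FPKM in every sample, and the change of 0.08 did not pass (adjusted p = 0.589 from limma, exact two-sided permutation p = 0.6, where 3 against 3 samples allow no p under 0.1). On this scale a fall from so low a level can only be small. Of the 9 listed regulators of PD-L1 only COPS5, the deubiquitinase that stabilises it, was downregulated (-0.23, adjusted p = 0.0372 and up to 0.136 with one sample left out), and CMTM6, which keeps PD-L1 at the membrane, had a change of -0.18 (adjusted p = 0.0787). Of 37 IFNγ response genes only the cell cycle inhibitor CDKN1A was upregulated, 0 were downregulated and the median was -0.01. The class II transactivator CIITA was 3.93, 3.78 and 3.86 in the controls and 3.98, 3.92 and 3.93 with SB-3CT (adjusted p = 0.366), and B2M, the light chain of class I molecules, had a change of -0.18 (adjusted p = 0.127). The chemokine CXCL10 was at or near 0 in all 6 samples. AIM2, a sensor of cytosolic DNA, fell from 5.88 ± 0.587 to 3.23 ± 0.0895 FPKM (SD, n = 3, adjusted p = 0.00608 from limma). Of 14 listed chemokines CXCL1, a neutrophil attractant, was upregulated (0.35) and CCL28 was downregulated (-0.29). The complement protease CFI was 3.05, 3.03 and 3.17 in the controls and 2.47, 2.11 and 2.28 with SB-3CT (adjusted p = 0.00777 and up to 0.0583 with one sample left out).

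Of 21 listed genes of melanoma lineage and dedifferentiation 5 were downregulated (23.8%), CDH19, CDH2, ERBB3, CAPN3 and CSPG4, and 1 was upregulated, CDK2. These stand beside 6.87% and 5.37% of all genes, and the median of the list was -0.02 (0.10 over those that averaged 1 FPKM or more). The receptor kinases AXL and EGFR, both markers of dedifferentiated melanoma, had changes of 0.18 each (adjusted p = 0.0508 and 0.289). For AXL the groups did not overlap, and it passed after scaling by the median ratio (adjusted p = 0.0265). ERBB3, a neuregulin receptor of the neural crest lineage, was 5.85, 5.85 and 5.88 in the controls and 5.54, 5.46 and 5.61 with SB-3CT, a fall from 57.1 ± 0.64 to 45.5 ± 2.42 FPKM (SD, n = 3, adjusted p = 0.011 and up to 0.0613 with one sample left out). CDH19, a Schwann cell cadherin, fell from 4.66 ± 0.413 to 2.97 ± 0.418 FPKM (SD, n = 3, adjusted p = 0.0263 and up to 0.107 with one sample left out). The 8 markers of the lineage summed to 115.3 to 118.9 FPKM in controls and 89.39 to 98.8 FPKM with SB-3CT, without overlap, and 4 of them were downregulated. Most of the sum was ERBB3 and CSPG4 (48.5 FPKM in controls and 41.9 FPKM with SB-3CT). CAPN3, 1 of the 4, was near the floor at 0.25 FPKM in controls and 0.0523 FPKM with SB-3CT. Fewer cells of a kind and less RNA per cell cannot be told apart in such samples. Of 15 cancer-testis antigens and melanoma long non-coding RNAs, CT45A5 and CT45A4 were upregulated and BANCR downregulated. CT45A5, a testis antigen re-expressed in tumours, was 1.88, 2.02 and 1.90 in the controls and 3.28, 3.33 and 3.31 with SB-3CT (change 1.38, adjusted p = 0.000176 from limma). Its family holds near-identical copies that can share reads, as does that of F8A3, a repeated gene of the factor VIII locus that was 4.42, 4.37 and 4.72 in the controls and 3.71, 3.68 and 3.73 with SB-3CT (change -0.79, adjusted p = 0.00596). BANCR, a non-coding RNA named for BRAF-driven melanoma, was 1.08, 0.96 and 1.23 in the controls and 0.29, 0.00 and 0.43 with SB-3CT (adjusted p = 0.00969 and up to 0.06 with one sample left out).

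In the MAPK output list, which reads the pathway that drives most melanomas, 4 of 18 genes were upregulated and 2 downregulated. The immediate early factor EGR1 was 2.46, 2.71 and 2.77 in the controls and 3.24, 3.08 and 3.31 with SB-3CT (change 0.56, adjusted p = 0.0215 and up to 0.0979 with one sample left out), and DUSP5, EPHA2 and EGR2 rose with it. DUSP6, the feedback phosphatase of ERK, was 5.39, 5.39 and 5.38 in the controls and 5.19, 5.12 and 5.15 with SB-3CT (change -0.23, adjusted p = 0.0158), and the ERK-stabilised factor ETV1 also fell (-0.36). DUSP1, a stress-induced phosphatase of p38 and JNK and no member of that list, was among the 12 largest rises, at 3.42, 3.25 and 3.39 in the controls and 4.20, 4.20 and 4.15 with SB-3CT (change 0.83, adjusted p = 0.000948 from limma). Of 15 YAP targets and angiomotins 2 were upregulated (F3 and AJUBA) and 2 downregulated (AMOT and CRIM1).

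The p53 targets were upregulated in 8 of 26 cases (30.8%) and downregulated in 1, CCNG1, beside 5.37% and 6.87% of all genes, with a median of 0.06. CDKN1A, the p21 inhibitor of cyclin-dependent kinases, was 8.62, 8.61 and 8.65 in the controls and 8.97, 9.01 and 9.06 with SB-3CT, a rise from 395 ± 6.27 to 515 ± 16.4 FPKM (SD, n = 3, adjusted p = 0.00596 from limma). EPS8L2, an actin regulator, was 3.02, 3.04 and 3.00 in the controls and 3.47, 3.56 and 3.47 with SB-3CT (adjusted p = 0.00596 from limma). Both passed with each sample left out, as did ATF3, which is on the stress list too. The other rises were ABHD4, BTG2, the nuclease AEN, the deaminase APOBEC3C and the death effector BAX, each smaller than 0.5. BAX had an adjusted p of 0.0372 from limma, and of 0.0562 with median ratio scaling. Without SB-3CT replicate 1 the list had 8 rises and 2 falls, in a fit with 302 rises and 610 falls over all genes. BBC3 (PUMA), at 3.62, 4.45 and 4.45 in the controls and 5.03, 4.04 and 5.05 with SB-3CT, overlapped between groups (change 0.53, adjusted p = 0.321). Among 33 apoptosis regulators BAK1, BAX and BIRC5 were upregulated and BNIP3L was downregulated.

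Cell cycle genes that passed moved both ways, while the medians of the replication and mitosis lists lay below that of all genes. Of 23 cyclins, cyclin-dependent kinases and their regulators 4 were upregulated (CDK2, CDKN1A, CCND3 and CDC25B) and 5 downregulated (CDK6, CCNE2, CDK1, CDKN2C and CCNA2), of which CDK6 did not pass with all 4 groups in the fit (adjusted p = 0.399). CDK2, the S-phase kinase, was 5.79, 5.75 and 5.72 in the controls and 6.34, 6.21 and 6.24 with SB-3CT (change 0.51, adjusted p = 0.00247 from limma), and CCND3, a G1 cyclin, rose from 36.1 ± 0.259 to 45.6 ± 1.03 FPKM (SD, n = 3). CDT1, which licenses replication origins, was 4.21, 3.99 and 4.17 in the controls and 4.67, 4.68 and 4.67 with SB-3CT (change 0.54, adjusted p = 0.00596 from limma). These 3 rises held with each sample left out. Of 34 genes of DNA replication CDT1 and E2F1 were upregulated and 4 downregulated, among them ASF1A, and of 41 genes of mitosis CDC20, BIRC5 and CKS1B were upregulated and 6 downregulated, led by ANLN (-0.52), CKAP2 (-0.49) and ECT2 (-0.47). Medians were -0.14 for replication and -0.15 for mitosis, beside -0.03 over genes that averaged 1 FPKM or more, and 0.003 for the 23 cyclin and kinase genes. Changes above 0 were found in 10 of the 34 and 13 of the 41. Without overlap, 4 lay higher and 11 lower in replication and 7 and 16 in mitosis, beside 14.2% and 19.7% of all genes. Without SB-3CT replicate 1 the falls numbered 14 of 34 and 16 of 41. Falls over all genes were also more numerous in that fit, at 610 in place of 338. For ANLN, a scaffold of the cleavage furrow, replicate 1 was 4.47 and the others 4.10 and 4.16, against 4.81, 4.75 and 4.74 in the controls.

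Other lists had few members that passed. Of 28 subunits of ATP synthase and cytochrome c oxidase ATP5I was upregulated (0.32, adjusted p = 0.0297, 0.104 with all 4 groups in the fit) and ATP5F1 downregulated (-0.19). Lysosome and autophagy genes were upregulated in 5 of 43 cases, led by CLN3 (0.48) and ATG4D (0.40), and downregulated in 3. Genes of the proton pump were on either side, with ATP6V0D1 among the rises and ATP6V1C1, ATP6V1D and ATP6AP2 as the falls. The clock list had DBP and CSNK1D upregulated of 10, and amino acid metabolism had ASNS upregulated and CPS1 and AMD1 downregulated of 20. Among the 24 largest changes, 4 genes outside the lists are left. C5orf58, an uncharacterised reading frame, was 1.35, 1.70 and 1.30 in the controls and 0.31, 0.32 and 0.47 with SB-3CT (change -1.08, adjusted p = 0.00429 from limma), and it passed with each sample left out. EEA1, the tether of early endosomes, was 2.74, 2.91 and 2.74 in the controls and 2.33, 1.88 and 1.88 with SB-3CT, and CCDC102B, a centrosomal protein, was 1.99, 2.02 and 2.01 in the controls and 1.54, 1.04 and 1.07 with SB-3CT. Both passed only without SB-3CT replicate 1 when a sample was left out, with adjusted p-values of up to 0.0909 and 0.0922. FAM133B, which has pseudogene copies, was 1.87, 1.84 and 2.12 in the controls and 2.99, 2.83 and 2.61 with SB-3CT (adjusted p = 0.0109, 0.206 with all 4 groups in the fit).

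The falls tracked transcript length in part of the samples. Change and length correlated at -0.21 (Pearson) and -0.24 (Spearman) over the 3150 genes that averaged 1 FPKM or more and had a known length, a description across genes of the same libraries. Ordered by length into 5 groups of like size, the median change was 0.03 in the shortest genes (249 to 1653 bases) and -0.11 in the longest (5456 to 24709 bases), where 8 genes were upregulated and 64 downregulated, against 76 and 52 in the shortest. In the longest genes SB-3CT replicates 2 and 3 had medians of -0.19 and -0.15 against the mean of the controls and replicate 1 a median of -0.02, near the controls. Among the genes named above, ADAM10 (11158 bases), EEA1 (9839 bases) and ADAM9 (4112 bases) lie above 3691 bases, whereas DHCR7 (2627 bases), AGMO (2476 bases) and FABP7 (785 bases) lie below. The part of length in the falls was not tested. With the length trend removed ADAM9, ADAM10 and EEA1 kept the call, whereas 10 of the named genes lost it and 5 gained it. Downregulated genes then numbered 324 in place of 338, and 3 in place of 4 on the cholesterol list.

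**Figure D4:**
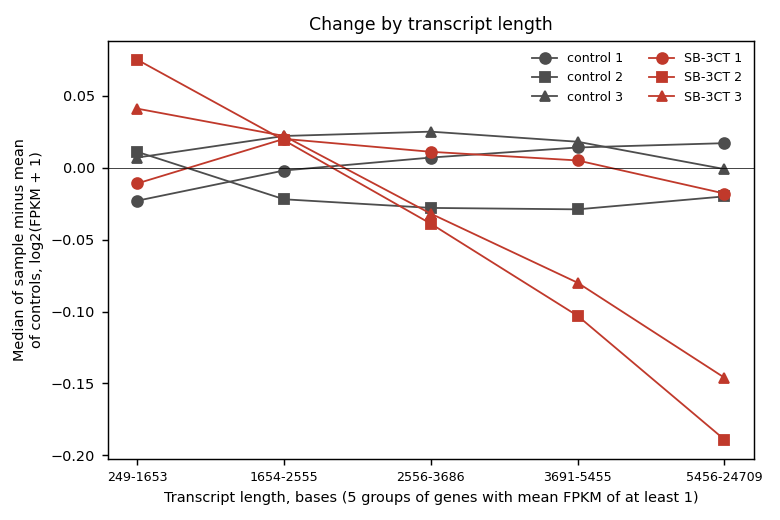
Median over genes of each sample minus the mean of the controls, log2(FPKM + 1), in 5 groups of genes ordered by transcript length, for 3 control (grey) and 3 SB-3CT (red) samples. SB-3CT replicates 2 and 3 fall from 0.075 and 0.041 in the shortest genes to -0.189 and -0.146 in the longest, while replicate 1 stays within 0.02 of 0.

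The response was then set beside that of cells given IFNγ as well, in 6 other libraries that share no sample with the comparison above. There, SB-3CT against IFNγ alone gave 315 upregulated genes (6.41%) and 1547 downregulated (31.5%), with a median change of -0.20 over genes that averaged 1 FPKM or more, and 763 (15.5%) and 811 (16.5%) after scaling by the median ratio. Of the 264 genes upregulated without IFNγ, 56 (21.2%) were upregulated and 27 downregulated with it (149 and 5 after scaling), and of the 338 downregulated, 206 (60.9%) were downregulated and 14 upregulated (147 and 40 after scaling). These shares stand beside 6.41% and 31.5% of all genes. The changes themselves differed by the interaction term in 1099 genes (22.3%), and in 657 genes after scaling by the median ratio. Of the 1099, 144 were among the upregulated (54.5% of these) and 96 among the downregulated (28.4%). Those sets, and the genes with the largest changes, were chosen by the change without IFNγ, which the difference subtracts. Their shares are therefore not independent of the choice and cannot be read against 22.3%.

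DDIT3 (change 1.22 with IFNγ), AKR1C1 (1.21), AKR1B10 (0.89), DHCR7 (-0.63), ACSL3 (-0.64), EPHA3, CFI (-0.79) and EEA1 (-0.74) changed in the same direction in either setting and passed in both, also after scaling by the median ratio. ANGPTL4 (0.57), CHAC1 (0.64), CYP1A1 (0.62) and ALAS1 (0.48) rose in both, by less with IFNγ, and the difference passed after scaling by the median ratio for ANGPTL4 (adjusted p = 0.00156) and ALAS1 (adjusted p = 0.0153) and not for CHAC1 (adjusted p = 0.09) or CYP1A1 (adjusted p = 0.238). CYB5R3, which rose by 1.09 without IFNγ, fell by 0.26 with it (adjusted p = 0.0225), where it no longer passed after scaling by the median ratio (change -0.03, adjusted p = 0.772), while the difference between the settings passed under either scaling. ATF3 and DUSP1 had changes of 0.06 and 0.07 under IFNγ (adjusted p = 0.497 and 0.649), and of 0.29 each after scaling by the median ratio, where ATF3 passed (adjusted p = 0.0106) and DUSP1 did not (adjusted p = 0.0638). Both rose by more without IFNγ, and the differences passed (adjusted p = 0.00141 and 0.00552 from limma), also after that scaling (adjusted p = 0.00326 and 0.013). FABP7, with changes of -0.92 and 0.37, also differed (adjusted p = 0.00374). The subunits of ATP synthase and cytochrome c oxidase, 1 up and 1 down of 28 without IFNγ, were upregulated in 24 with it, and the difference passed as higher in 22 (23 after scaling by the median ratio). CD274, which did not pass without IFNγ, fell by 0.53 with it (adjusted p = 0.00542), and the difference of -0.60 (adjusted p = 0.0154) shrank to -0.39 under median ratio scaling (adjusted p = 0.0765). Its mean was 0.62 in controls and 4.50 with IFNγ alone. From the low level only a small fall was possible on this scale, so the difference cannot show whether the proportional change differed.

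**Figure D5:**
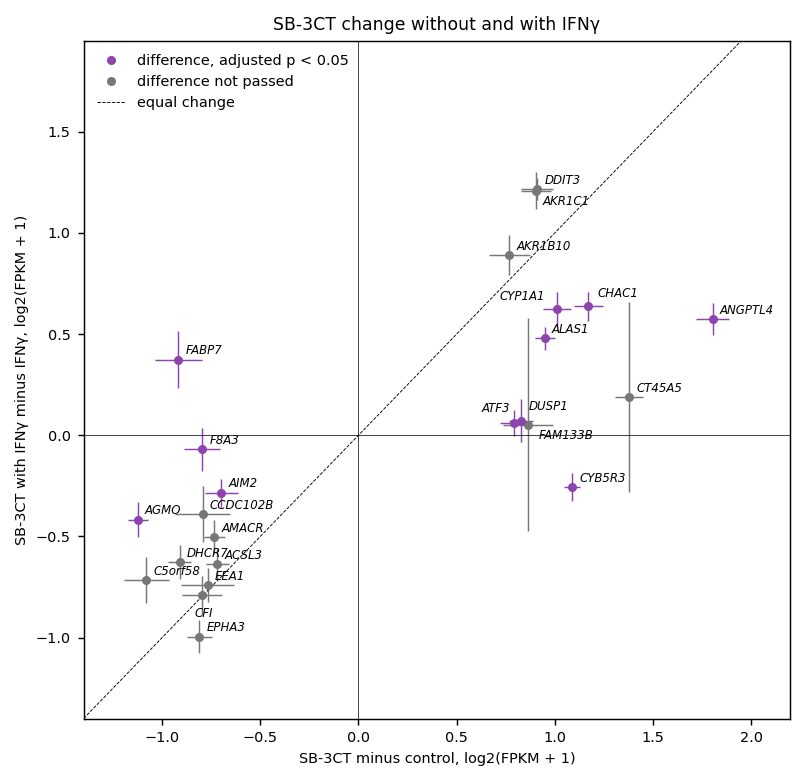
Change with SB-3CT without IFNγ (horizontal) and with IFNγ (vertical), log2(FPKM + 1), of the 12 largest rises and 12 largest falls, with standard errors from limma and 3 samples in each of the 4 groups. Purple points differ between the settings by the interaction term, and CYB5R3 lies 1.09 to the right of 0 and 0.26 below it.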

How the data were processed

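RNA of 6 A375 libraries (3 untreated, 3 with SB-3CT for 24 h) was compared. Per the labels and the study's methods, the authors aligned reads to hg19 with HISAT2 2.0.5 and quantified genes with StringTie 1.3.3. The deposited table holds log2 values, read here as log2(FPKM + 1) from the values themselves, since the transformation is not stated. It gives no read counts, so depth is unknown except in relative terms, and no counting interval can be given. The strand setting is not given in the sources used here.

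The tool was limma 3.58.1 (R 4.3.3), run unpaired on the 3 + 3 samples with a trended prior variance and Benjamini-Hochberg adjustment over 4918 genes, and the interaction with IFNγ was fitted over 12 samples. The procedure was tested on simulated data. Positions and lengths are from GENCODE on hg19, where 99.1% of the symbols had a transcript length, 417 through an older symbol, and promoter windows are from RefSeq on GRCh38.p14. Genes named were the 12 largest rises and 12 largest falls that passed the adjusted threshold of 0.05, averaged 1 FPKM or more and did not overlap between groups, up to 3 rises and 3 falls per list under the same conditions, selected key members and CD274. Some list members are counted but not reported here by name. A few further members are named from the counts, after their values were seen. The genes, the 31 hand-written lists and the tests were chosen with earlier results of these data known. Alternatives covered the pseudocount, a filter on low values, scaling by the median ratio or quantiles, the samples fitted, a replicate block, the variance model, each sample left out and, added after the data were seen, a lowess fit on transcript length subtracted per sample.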

Additional observations from a re-analysis of the deposited data

Results flagged for a closer look

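Among the 24 genes with the largest changes under SB-3CT alone, 11 had a change that differed with IFNγ by the interaction term in limma (adjusted p-value under 0.05, over 12 samples). The share over all genes was 22.3%, but the 24 were chosen by the change without IFNγ. The difference subtracts that same change, so the choice itself favours smaller changes with IFNγ. As the change with IFNγ minus that without, the differences on the log2 scale were -1.23 for ANGPTL4, -0.53 for CHAC1, -1.35 for CYB5R3, -0.39 for CYP1A1, -0.47 for ALAS1, -0.76 for DUSP1 and -0.73 for ATF3, all of which rose less or not at all with IFNγ. Those of genes that fell were 0.41 for AIM2, 0.72 for F8A3, 1.29 for FABP7 and 0.71 for AGMO, which fell less or not at all. The changes with IFNγ start from the levels with IFNγ alone, given above beside those of controls for the genes that rose. After scaling by the median ratio CHAC1 (-0.33, adjusted p = 0.09) and CYP1A1 (-0.20, adjusted p = 0.238) no longer passed, while DDIT3 (0.51, adjusted p = 0.00752), AKR1C1 (0.50, adjusted p = 0.0186), AMACR (0.41, adjusted p = 0.00641) and DHCR7 (0.46, adjusted p = 0.0107) did.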

How the results depend on the processing

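The 602 genes with an adjusted p-value under 0.05 became 907 (542 lower) when only genes averaging 1 FPKM or more were fitted, and 73 to 912 (41 to 302 higher, 30 to 610 lower) with one sample left out, 912 being without SB-3CT replicate 1. Samples of the same number did not deviate together (correlations 0.031, -0.015 and 0.064), and with the number as a replicate block 259 genes passed, 126 higher and 133 lower. At a fold over 1.5 and p under 0.05, the 49 genes became 220 (82 higher, 138 lower) with a pseudocount of 0.1, 200 (66 and 134) with a per-gene equal-variance comparison of FPKM, 88 (32 and 56) at a log2 change over 0.5, and 50 to 78 (21 to 25 higher, 26 to 55 lower) with one sample left out, 78 being without SB-3CT replicate 1. The 1099 genes whose change differed with IFNγ became 657 after scaling by the median ratio, 640 after quantile normalization and 678 to 1450 with one sample left out (678 without control replicate 2, 725 and 724 without IFNγ replicates 1 and 3). The causes were not tested, beyond the smaller number of samples or genes in the fit. CD274 did not pass in any alternative run, with changes of 0.00043 to 0.18. Of the other 122 named genes past the threshold, 71 kept the call in every alternative that used all samples, 31 in every fit with one sample left out, and 0 of 159 reversed. ECI1, AGPAT2, BAX, ATP5F1, DBI and CCL28 were among the genes that lost the call after scaling by the median ratio. Low genes are limited most: the scale compresses changes below about 1 FPKM, and without counts their sampling error is not known.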

Other observations

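Gene families were also read across the table, and those described here were chosen after their values were seen. Over all genes 5.37% were higher and 6.87% lower with SB-3CT. The GTPase-activating genes of the ARHGAP family had 4 of 31 members lower with SB-3CT (ARHGAP5, ARHGAP12, ARHGAP15 and ARHGAP18) and 1 higher (ARHGAP24). ARHGAP18, a regulator of cell shape, was 3.17, 3.18 and 3.19 in the controls and 2.73, 2.45 and 2.44 with SB-3CT (adjusted p = 0.0109 from limma), with replicate 1 nearest to the controls. ARHGAP5 (change -0.68) and the antisense transcript ARHGAP5-AS1 (-0.67) both fell, and without a stated strand setting their reads cannot be told apart. Exchange factors of the ARHGEF family, which switch small GTPases on, had 3 of 22 higher and 1 lower. CDC42EP1, an effector of CDC42 in the actin cortex, rose from 8.15 to 13.2 FPKM (adjusted p = 0.00596 from limma) and passed in all 6 leave-one-out fits. Coat proteins of Golgi vesicles had 3 of 9 lower (COPB1, COPB2 and COPG2) and 0 higher, and the COP9 signalosome, which removes NEDD8 from cullins, had 3 of 8 lower (COPS2, COPS4 and COPS5) and 1 higher (COPS7A).

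Single genes outside the lists rose as well. EPHX1, the microsomal epoxide hydrolase of drug metabolism, was 3.60, 3.58 and 3.76 in the controls and 4.26, 4.28 and 4.42 with SB-3CT (change 0.68, adjusted p = 0.00429 from limma), without overlap and in all 6 leave-one-out fits. CLCF1, a cytokine of the interleukin-6 family, was 3.32, 3.30 and 3.38 in the controls and 3.90, 3.95 and 3.99 with SB-3CT (change 0.61, adjusted p = 0.00218 from limma), again in all 6 fits. C1QTNF1, a secreted relative of adiponectin, was 1.73, 1.64 and 1.60 in the controls and 2.22, 2.31 and 2.53 with SB-3CT (change 0.70, adjusted p = 0.011), and BEX2, a small adaptor protein, had a change of 0.67 (adjusted p = 0.0248), and both passed in 2 of the 6 fits.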
